A study of Mus musculus with 8 samples.

Results

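The insulin-like growth factor (IGF) axis was examined in cultured astrocytes from the retinas and optic nerves of Spp1 knockout and wild-type mouse pups. The genes were chosen by name, from those that the authors' deposited table lists as changed between the genotypes: 16 names of the axis were searched for, and 6 were among the 3624 listed genes. The measured values that put a gene in that table are its fold change and adjusted p-value in this comparison, so the fold changes below are a description of selected genes. The 6 are the ligands Igf1 and Igf2, the binding proteins Igfbp2, Igfbp3 and Igfbp7, and the RNA-binding protein Igf2bp3. The other 10 names, which are Igf1r, Igf2r, Igfbp1, Igfbp4, Igfbp5, Igfbp6, Igfbpl1, Igf2bp1, Igf2bp2 and H19, are not in the table. The table was filtered on fold change and p-value, and it does not show which genes were tested, so nothing is read from their absence.

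The study sequenced RNA from 4 samples labelled wild type, of strain C57BL/6, and 4 labelled Spp1-/-, of strain B6.129S6(Cg)-Spp1tm1Blh/J. All came from pups of postnatal day 1 to 3 and were grown with 10% fetal bovine serum in DMEM/F12, so both groups met the growth factors of serum. The knockout removes Spp1, the gene of the secreted phosphoprotein osteopontin, from every cell of the animal, and the labels name no littermate controls. Whether the samples were separate cultures or animals is not labelled, and the errors below cover the spread between them, which could be technical only. No values per sample were used here: the table gives 1 comparison, and how deeply each sample was sequenced is unknown. Errors written after ± are deposited standard errors of a log2 fold change. The authors' deposited table lists Spp1 at -5.90 ± 0.11 (log2 fold change) and does not state which genotype is the numerator. All fold changes are read as knockout over wild type from the sign of Spp1, so that gene cannot also check the labels. The Y-linked genes Ddx3y, Eif2s3y, Uty and Kdm5d had implied wild-type levels of at most 1.66% of the knockout levels. The labels give no sex, and the strain label also differs between the groups. Sex, strain and genotype therefore cannot be told apart for any gene below.

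IGF-I and IGF-II are small secreted proteins, related to insulin, that act mainly through the type 1 receptor encoded by Igf1r and promote growth and survival of cells. Igf2r encodes a second receptor that takes up IGF-II and carries it to lysosomes. IGF-binding proteins hold the ligands in the fluid around cells and can withhold them from the receptor or prolong their life, and proteases that cut them set ligands free. In the brain and eye, Igf2 is known as a transcript of the meninges and choroid plexus, Igf1 is made by microglia and macrophages among other cells, and Igfbp2 is abundant in immature astrocytes and neural progenitors. Igf2 is imprinted and expressed mainly from the paternal copy, while H19, a noncoding RNA gene 72.6 kb away on chromosome 7, is expressed from the maternal copy.

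Both listed ligands were higher in the knockout cultures and the 3 listed binding proteins were lower. With Igf2bp3 also higher, 3 of the 6 listed genes rose and 3 fell. The median log2 fold change was 0.03 over the 6 and 0.66 over all 3624 listed genes, and the median absolute log2 fold change was 2.03 against 1.14. About 16600 genes appear to have been tested, of which 21.8% are in the table, 12% as higher and 9.84% as lower in the knockout. Because a place in the table chose the 6 genes, their number is not compared with these shares.

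**Figure D1:**
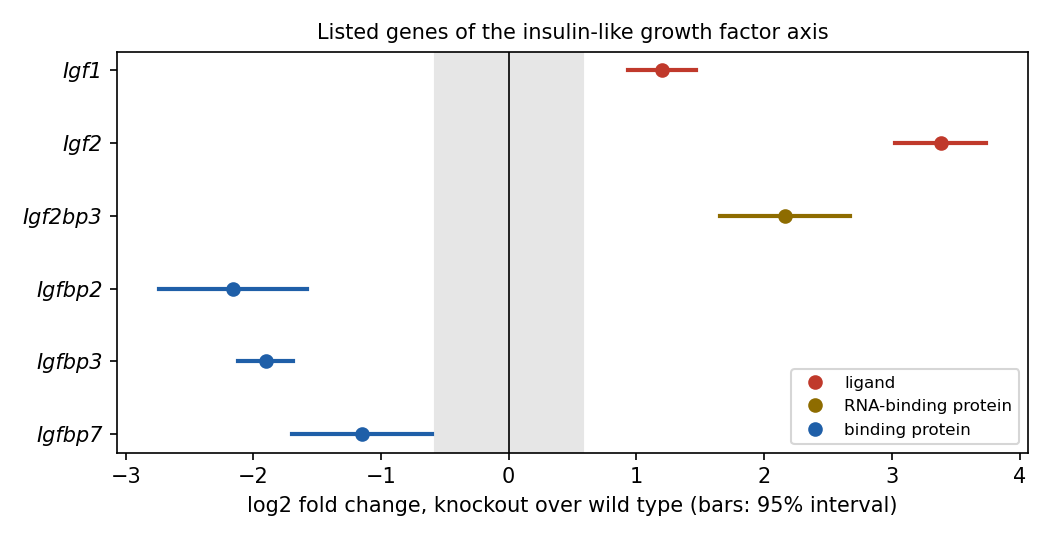
Log2 fold changes (knockout over wild type) of the 6 listed IGF axis genes, with points for the deposited values and bars for 95% intervals; the grey band marks absolute values under 0.58, the smallest the table holds. Igf1, Igf2 and Igf2bp3 lie to the right and the 3 binding proteins to the left, and the Igfbp7 interval ends at -0.60, close to the band.

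Igf2 encodes IGF-II and lies on the minus strand of chromosome 7 at 142650766 to 142666816 in GRCm38. Its implied mean normalized count, worked out from the mean over all samples and the fold change, was 2314 in wild type and 24132 in knockout cultures. Igf2 rose by 3.38 ± 0.18 (log2) in the authors' deposited table, with adjusted p = 1.36e-74. That is a 10.4-fold higher level, with a 95% interval of 8.15 to 13.3. Of the 56 listed genes with a mean of at least 10000, 2 had a larger absolute log2 fold change, Spp1 and the complement gene C3. Igf2 is among the 56 only through its knockout level, its wild-type level being 2314, so this rank is not independent of the change. A rise at least as large as that of Igf2 was listed for 146 genes, Igf2 included.

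Igf1 encodes IGF-I and is found at 87858265 to 87937042 on the plus strand of chromosome 10. Its implied mean was 1803 in wild type and 4145 in knockout cultures. The authors' deposited table lists Igf1 at 1.20 ± 0.14 (log2, adjusted p = 6.58e-17), a 2.30-fold higher level with a 95% interval of 1.91 to 2.77. The rise of Igf1 was the smaller one: its interval on the log2 scale, 0.93 to 1.47, ended below the start of the interval of Igf2, 3.03 to 3.74. The difference between the 2 genes was not tested, since the covariance of their estimates is not in the table. Per kb of exon, the implied level of Igf2 was 2.22 times that of Igf1 in wild type and 10.1 times in knockout cultures.

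The RefSeq promoter table lists 10 start sites for the 6 genes, and the 150 bases before a start were free of annotated exons at 6 of them. The window before the start of Igf2 nearest to its coding part, shown because Igf2 is the member that rose most, is at chr7:142657497-142657646 on the minus strand of GRCm38.p6 and lies in an intron of transcripts that begin further upstream. Capitals mark matches on either strand to any of 5 short motifs: the TATA box (TATAAA), the CCAAT box (CCAAT), the GC box (GGGCGG), the E-box (CACGTG) and the AP-1 site (TGANTCA). This window held 2 GC boxes and none of the other 4 motifs. The window before the start furthest upstream, at chr7:142666817-142666966, held none of the 5. The table does not tell transcripts from different starts apart, so the rise of Igf2 was not assigned to a start. A match to a motif describes the letters only.
Igf2: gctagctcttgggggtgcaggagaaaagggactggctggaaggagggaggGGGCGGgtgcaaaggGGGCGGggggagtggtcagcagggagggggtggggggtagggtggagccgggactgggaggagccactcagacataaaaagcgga

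Igfbp2, at 72824503 to 72852474 on the plus strand of chromosome 1, encodes the IGF-binding protein with the highest level of the 3 listed. It ranked 3 by mean normalized count among all 3624 listed genes. Its implied mean was 122219 in wild type and 27349 in knockout cultures. The authors' deposited table lists a log2 change of -2.16 ± 0.30 for Igfbp2 (adjusted p = 8.56e-12), a 4.47-fold lower level with a 95% interval of 2.98 to 6.69. Among the 56 listed genes with a mean of at least 10000, Spp1 and Igfbp2 were the only ones to fall by more than 2 on the log2 scale.

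Igfbp3 encodes the main carrier of IGFs in blood plasma and lies on the minus strand of chromosome 11 at 7206086 to 7213923. Its implied mean was 31670 in wild type and 8471 in knockout cultures. Igfbp3 fell by 1.90 ± 0.11 (log2) in the authors' deposited table (adjusted p = 4.86e-64), a 3.74-fold lower level with a 95% interval of 3.22 to 4.34. The intervals of Igfbp2 and Igfbp3 on the log2 scale overlapped, -2.74 to -1.58 and -2.12 to -1.69.

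Igfbp7 encodes a secreted protein of the extracellular matrix that binds IGFs only weakly, and lies on the minus strand of chromosome 5 at 77349240 to 77408041. It is on the same chromosome as Spp1, 27 Mb away, and is the only one of the 6 genes on chromosome 5. Its implied mean was 6248 in wild type and 2820 in knockout cultures. For Igfbp7 the authors' deposited table lists -1.15 ± 0.28 (log2, adjusted p = 2.84e-04), a 2.22-fold lower level with a 95% interval of 1.52 to 3.23. This was the smallest change of the 6 and the one with the largest adjusted p-value.

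The genes of the binding proteins sit beside relatives that are not in the table: Igfbp5 lies 5.5 kb from Igfbp2, and Igfbp1 lies 3.5 kb from Igfbp3. The windows before the start sites of the 3 binding protein genes are shown because each of the 3 was listed as lower. They are at chr1:72824330-72824479 on the plus strand, chr11:7213924-7214073 on the minus strand and chr5:77408046-77408195 on the minus strand of GRCm38.p6. The Igfbp2 window held 3 GC boxes and 1 E-box, the Igfbp7 window held 4 GC boxes, and the Igfbp3 window held none of the 5 motifs. A GC box was present in 28.6% of the 32851 windows of the same length before all RefSeq starts, an E-box in 4.30%, a CCAAT box in 24.5%, a TATA box in 7.57% and an AP-1 site in 4.24%. G and C made up 72% of the bases in the Igfbp2 window, 78.7% in the Igfbp3 window and 78% in the Igfbp7 window, against a median of 54% over all windows.
Igfbp2: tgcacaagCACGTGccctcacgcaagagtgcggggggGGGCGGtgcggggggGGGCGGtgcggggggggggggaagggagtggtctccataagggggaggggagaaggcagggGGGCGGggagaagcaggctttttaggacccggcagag
Igfbp3: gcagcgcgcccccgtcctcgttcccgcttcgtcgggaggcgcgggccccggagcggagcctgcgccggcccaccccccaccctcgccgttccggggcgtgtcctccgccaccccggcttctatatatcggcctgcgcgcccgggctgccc
Igfbp7: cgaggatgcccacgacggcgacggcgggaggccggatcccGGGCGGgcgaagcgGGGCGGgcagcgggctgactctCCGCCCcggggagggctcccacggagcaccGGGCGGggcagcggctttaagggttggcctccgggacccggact

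Igf2bp3 encodes an RNA-binding protein of fetal tissues, named for its binding to Igf2 mRNA, and lies on the minus strand of chromosome 6 at 49085223 to 49214957. It was the least abundant of the 6 genes, with an implied mean of 70.9 in wild type and 318 in knockout cultures. Igf2bp3 rose by 2.16 ± 0.26 (log2) in the authors' deposited table (adjusted p = 2.77e-15), a 4.48-fold higher level with a 95% interval of 3.15 to 6.38. Its window, at chr6:49214958-49215107 on the minus strand, is shown because Igf2bp3 also rose, and it ends 3 bases upstream of the RefSeq start to stay clear of an annotated exon. It held 1 CCAAT box and 1 E-box, marked in capitals.
Igf2bp3: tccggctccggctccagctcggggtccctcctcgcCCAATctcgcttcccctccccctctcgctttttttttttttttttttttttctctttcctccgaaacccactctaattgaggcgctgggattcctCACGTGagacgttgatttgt

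Levels of different genes were compared per kb of exon, counting every annotated exon base of a gene once. In wild type the order of implied levels per kb was Igfbp2 (66172), Igfbp3 (10118), Igfbp7 (5168), Igf2 (404), Igf1 (182) and Igf2bp3 (8.69). In the knockout it was Igfbp2 (14807), Igf2 (4217), Igfbp3 (2706), Igfbp7 (2332), Igf1 (419) and Igf2bp3 (38.9). Igf2 thus moved from below all 3 listed binding proteins to above Igfbp3 and Igfbp7. The differences between neighbours in these orders were not tested.

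The summed implied level per kb of the 3 listed binding proteins was 81458 in wild type and 19846 in knockout cultures. For the 2 ligands the sum was 586 in wild type and 4635 in knockout cultures. Listed binding protein transcripts therefore stood at 139 times the ligand transcripts per kb in wild type and at 4.28 times in knockout cultures. Igfbp2 made up 81.2% of the listed binding protein level per kb in wild type and 74.6% in knockout cultures. These sums leave out Igfbp4, Igfbp5 and Igfbp6, whose levels are not in the table. Genes with long or alternative exons, such as Igf1, have their level per kb understated by this measure.

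**Figure D2:**
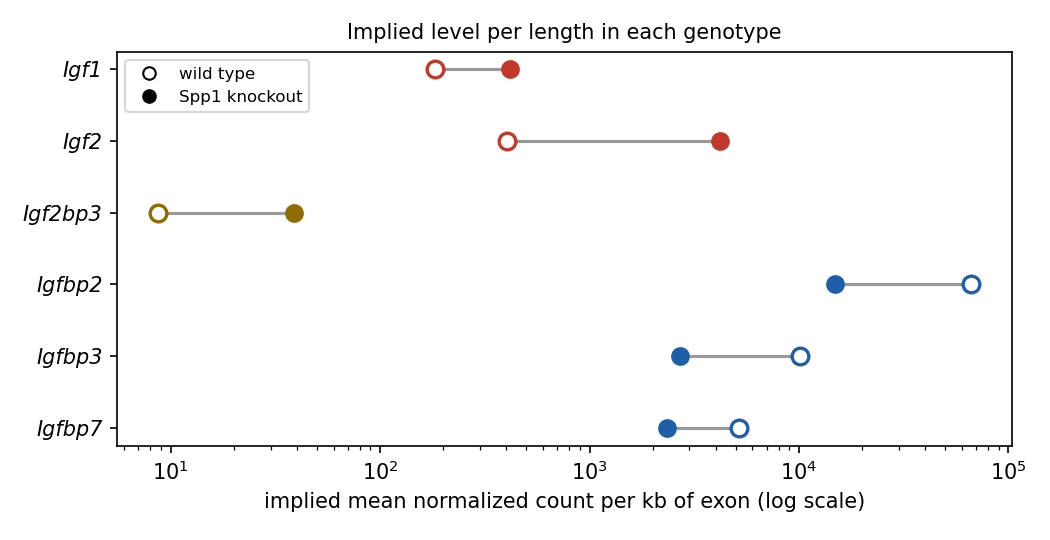
Implied mean normalized count per kb of exon (log axis) in wild type (open circles) and Spp1 knockout (filled circles), 1 row per gene. The ligands and Igf2bp3 move to the right in the knockout and the 3 binding proteins to the left, with Igf2 going from 404 to 4217 and Igfbp2 from 66172 to 14807.

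**Figure D3:**
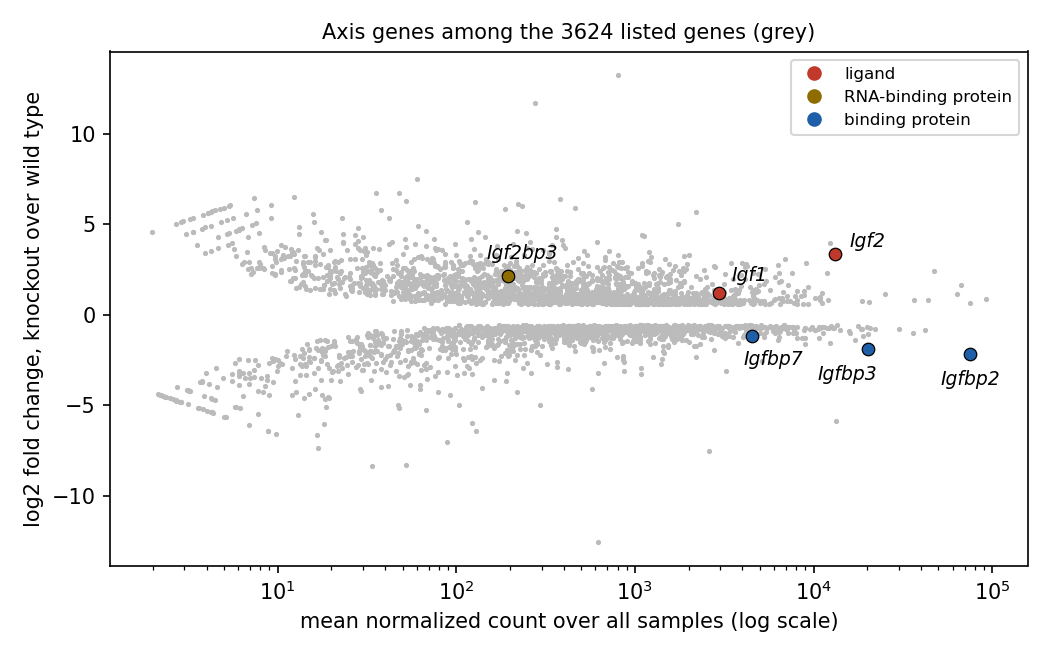
Log2 fold change (knockout over wild type) against the mean normalized count over all samples (log axis) for the 3624 listed genes (grey), with the 6 IGF axis genes coloured by role. Igf2, Igfbp2 and Igfbp3 lie at the right edge, where few genes have changes of this size. Igf2 lies there through its knockout level only. Igf2bp3 lies at a mean of 194 among many genes with like changes.

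The precision of the 6 estimates was uneven. The authors' deposited table gives Igfbp2 an error of ± 0.30, and 0 of the 100 listed genes nearest to it in mean count had a larger one. The median of the 100 was 0.14. Igfbp2 ranks 3 in mean count, so most of the 100 were less abundant, with means from 6760 to 92106. Genes kept out of the table by a large standard error are not in these comparisons. For Igfbp7, with 0.28, 1 of the 100 nearest had a larger standard error, against a median of 0.15. Igfbp3 was estimated more closely than most of the listed genes nearest to it, with 78 of the 100 above its standard error. The means of those 100 ran from 6545 to 47053. Igf1 (67 of 100 above), Igf2bp3 (42) and Igf2 (22) lay between. Expressed as the relative spread between samples of 1 group that would give these standard errors, the values were 29.1% for Igfbp2, 27.3% for Igfbp7, 23.7% for Igf2bp3, 17.8% for Igf2, 13.3% for Igf1 and 10.8% for Igfbp3. Whether 1 sample or all samples of a group carry the spread of Igfbp2 and Igfbp7 was not tested, since no values per sample were used.

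**Figure D4:**
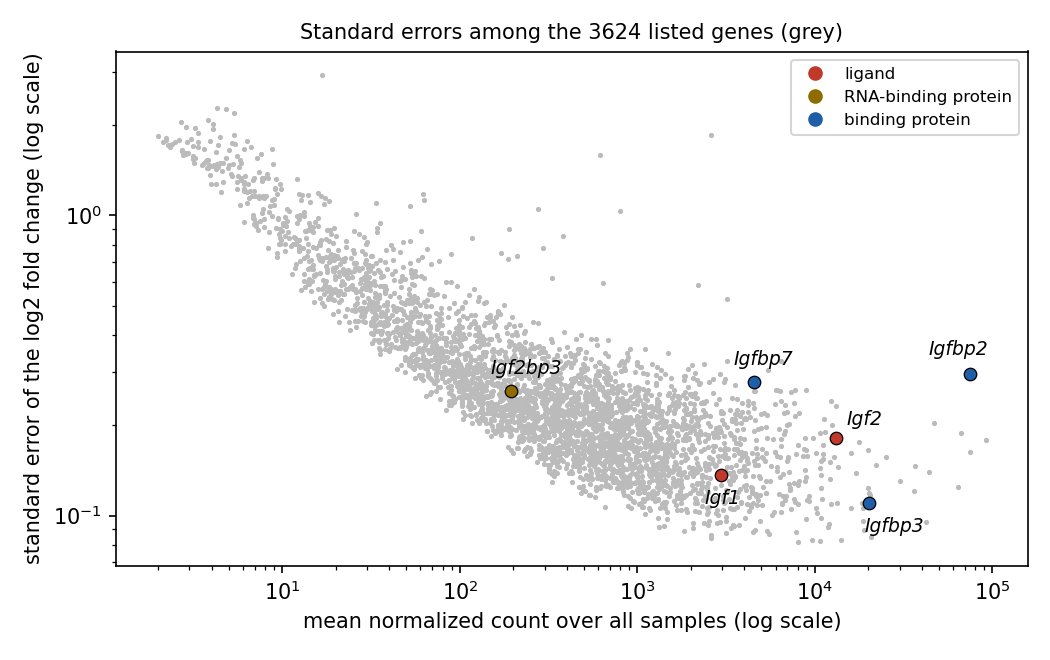
Standard error of the log2 fold change (log axis) against the mean normalized count (log axis) for the 3624 listed genes (grey), with the 6 IGF axis genes coloured by role. Standard errors fall with the mean count; Igfbp2 and Igfbp7 lie at the upper edge for their counts, and Igfbp3 lies in the lower part.

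Of 19 genes for proteins that release IGFs from their binding proteins, or hold them in complexes, 8 were listed, 5 as higher and 3 as lower; their median was 0.90 (log2). That is 42.1% of the names, against 21.8% of all genes tested. Shares of a list, here and below, are of all its names, and some of these may not have been tested. Mmp3, a matrix metalloproteinase that can cut IGF-binding proteins, rose by 2.46 ± 0.13 in the authors' deposited table. By the authors' deposited table, Plau, the urokinase that activates plasmin, rose by 1.92 ± 0.14, and Vtn, the matrix and plasma protein vitronectin, by 4.31 ± 0.36 from an implied mean of 34.9 to 691. Ctsl (0.91 ± 0.14) and Ctsd (0.89 ± 0.18), which encode lysosomal proteases, were among the higher genes of the authors' deposited table. The lower genes of the authors' deposited table were the secreted serine protease gene Htra1 (fell by 1.00 ± 0.12), Stc2, whose product inhibits the binding protein protease pappalysin (fell by 3.00 ± 0.55), and the metalloproteinase gene Adam12 (fell by 0.62 ± 0.14). The pappalysin genes Pappa and Pappa2 are not in the table.

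Of 49 genes on the list for signalling inside the cell, 13 were listed, 8 as higher and 5 as lower, which is 26.5% of the names and near the 21.8% of all genes tested, so the count is not read as a result about the pathway. One of the 13, Pdk1, at 0.75 ± 0.13 in the authors' deposited table, encodes a pyruvate dehydrogenase kinase of mitochondria rather than the kinase that activates AKT. Without it 12 of 48 were listed, 7 as higher and 5 as lower, and the median went from 0.75 to 1.09 (log2). The higher genes with the smallest adjusted p-values were genes of phosphoinositide 3-kinase and its opposing phosphatase that are best known from blood cells. By the authors' deposited table, the catalytic subunit gene Pik3cg rose by 2.66 ± 0.18, the phosphatase gene Inpp5d by 2.61 ± 0.22, the regulatory subunit gene Pik3r5 by 1.93 ± 0.17 and the catalytic subunit gene Pik3cd by 1.55 ± 0.18. Irs4, an insulin receptor substrate gene, fell by 3.05 ± 0.39 in the authors' deposited table, from an implied mean of 114 to 13.8. Markers of microglia and macrophages, given below, were higher beside these genes, and their part in them was not tested. Among the main adaptor and kinase genes of the type 1 receptor, Irs1, Irs2, Akt1, Akt2, Pik3ca and Pik3r1 are not in the table.

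The insulin family list had 8.33% of its names listed and the growth hormone list 7.14%, against 21.8% of all genes tested. Names that were not tested lower such a share, so nothing is read from these being smaller. From the insulin family list of 12, Insrr, which encodes the insulin receptor-related receptor, was the 1 listed gene, and it rose by 3.59 ± 1.07 in the authors' deposited table from an implied mean of 1.31 to 15.8. From the growth hormone list of 14, the receptor gene Ghr was the 1 listed, and it fell by 0.93 ± 0.17 in the authors' deposited table. Growth hormone is the main inducer of Igf1 in liver. Among 19 genes that act on the Igf2-H19 domain or on Igf2 translation, 0 were listed as higher and 2 as lower: Hmga2 (-1.78 ± 0.24) and Hmga1 (-1.21 ± 0.22), which encode chromatin proteins of growing cells, per the authors' deposited table. The share lower, 10.5%, was near the 9.84% of all genes tested. HMGA2 is known as an activator of Igf2bp2, which is not in the table.

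Of 20 genes near Igf2 and H19 on chromosome 7, 7 were listed (35%, against 21.8% of all genes tested), 5 as higher and 2 as lower, around a median of 1.49 (log2). Cdkn1c, the imprinted gene of a cyclin-dependent kinase inhibitor expressed from the maternal copy, rose by 2.42 ± 0.47 in the authors' deposited table, from an implied mean of 52.7 to 282. Slc22a18, a transporter gene of the same imprinted cluster, rose by 1.49 ± 0.39 in the authors' deposited table, and Kcnq1, a potassium channel gene of that cluster, by 3.70 ± 1.29 from an implied mean of 0.66. Tssc4 and the cation channel gene Trpm5 of the same stretch were lower in the authors' deposited table, at -0.99 ± 0.23 and -1.86 ± 0.36. Ctsd, also on this list, is described above. Ins2 and Th, which flank Igf2 on the side away from H19, are not in the table.

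**Figure D5:**
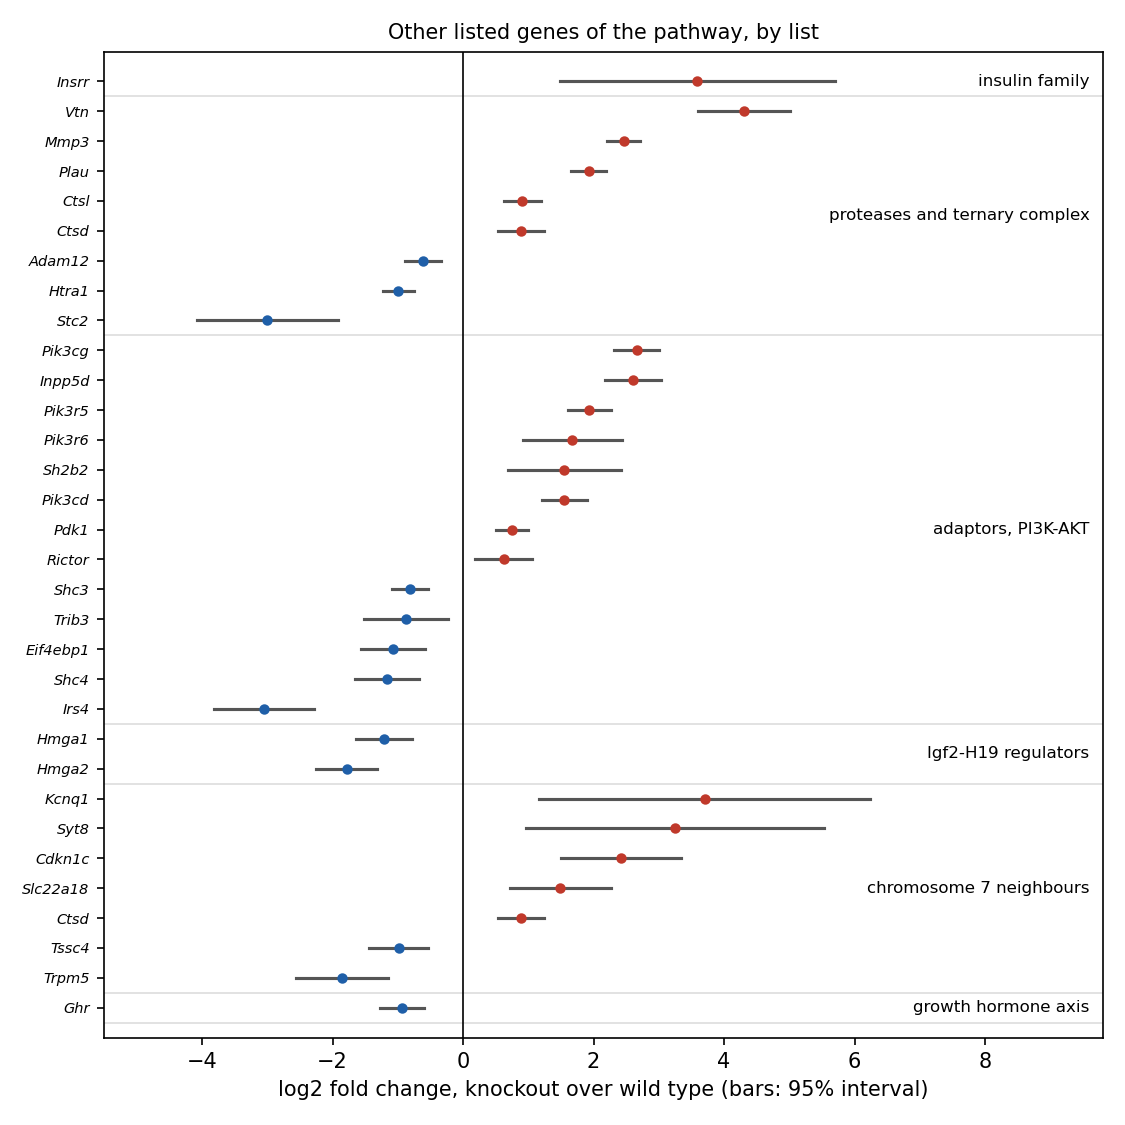
Log2 fold changes (knockout over wild type) of the other listed pathway genes, with points for deposited values (red higher, blue lower) and bars for 95% intervals, grouped by list. Each of the 3 lists with the most listed genes has members on both sides of 0, and the widest intervals belong to genes of low count such as Kcnq1, Syt8 and Insrr.

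Markers of other cell types moved beside these genes, and their part in the changes of the IGF axis was not tested. In bulk RNA, fewer cells of a type and less RNA per cell cannot be told apart. Over all genes tested, 12% were listed as higher and 9.84% as lower. Beside Igf1, markers of microglia and macrophages were higher for 17 of 18 genes (94.4%) and lower for 0, around a median of 2.29 (log2). Tmem119 was the 1 gene outside the table. The implied levels of the 17 listed markers summed to 23202 in wild type and 117170 in knockout cultures. The smallest adjusted p-values among them in the authors' deposited table were those of Mrc1 (4.36 ± 0.13), Mpeg1 (2.30 ± 0.09) and the integrin gene Itgam (2.70 ± 0.12). By point values, the rise of Igf1, 1.20, was below the lowest of these 17 markers, Tyrobp at 1.42 ± 0.36 in the authors' deposited table. The interval of Igf1 on the log2 scale, 0.93 to 1.47, overlapped those of Tyrobp (0.72 to 2.12), C1qa, C1qc and Trem2. The differences between Igf1 and the markers were not tested.

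Beside Igf2, markers of meningeal and arachnoid fibroblasts were higher for 11 of 18 genes and lower for 1, Crabp2. That is 61.1% higher, against 12% of all genes tested, and the median over the 12 listed was 1.41 (log2). The implied levels of the 12 summed to 39855 in wild type and 89806 in knockout cultures, of which the collagen gene Col3a1 made up 31255 and 56076. The smallest adjusted p-values of the authors' deposited table on this list were those of Cldn11, a gene of arachnoid tight junctions (2.93 ± 0.15), the proteoglycan gene Dcn (2.87 ± 0.16) and Aldh1a2, a retinoic acid enzyme gene of the meninges (1.76 ± 0.14). By point values, the rise of Igf2, 3.38, was above 9 of the 12 and below Slc6a13, Ptgds and Slc22a8. The interval of Igf2 on the log2 scale, 3.03 to 3.74, overlapped those of Cldn11 (2.63 to 3.22) and Dcn (2.56 to 3.18) only. The differences between Igf2 and the markers were not tested. Col1a1 and Col1a2, defining genes of fibroblasts, are not in the table.

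Beside the falls of the binding proteins, markers of the oligodendrocyte lineage and Schwann cells were lower for 12 of 14 genes. That is 85.7% lower, against 9.84% of all genes tested. Implied sums of the 12 were 27953 in wild type and 7069 in knockout cultures. Ngfr (-4.11 ± 0.21), the proteoglycan gene Cspg4 (-2.33 ± 0.14) and the myelin gene Mbp (-2.46 ± 0.16) had the smallest adjusted p-values of this list in the authors' deposited table. Cspg4 also counts as lower on the list of pericytes and smooth muscle given further below. Also given there are the lists of neurons and of Müller glia and retinal progenitors. Each of these had 7 of 11 genes lower (63.6%, against 9.84% of all genes tested) and 0 higher. Markers of the labelled cell type, astrocytes, were split, with 4 higher (30.8%) and 3 lower (23.1%) of 13, against 12% and 9.84% of all genes tested. Implied sums of the 7 listed were 86302 in wild type and 136125 in knockout cultures, of which Gfap made up 58314.5 and 91923.1. Gfap, the astrocyte filament gene, was higher by 0.66 ± 0.16, Aqp4, the water channel gene, by 1.15 ± 0.16 and the connexin gene Gjb6 by 4.28 ± 0.37 in the authors' deposited table. Fabp7, a gene of immature astrocytes, fell by 1.23 ± 0.10, and S100b fell by 1.82 ± 0.15, in the authors' deposited table.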

How the data were processed

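RNA-seq of 8 samples, 4 wild type and 4 Spp1 knockout, was analysed from 1 table of the comparison between genotypes. Tools listed in the submitters' processing notes are DESeq2 1.30.1, STAR 2.7 and CASAVA 1.8, with build GRCm38 and no roles; the annotation, the counting step and any filter were not given in the sources used here. Per the file headers, the authors deposited for each gene a mean normalized count (a signal averaged over all samples), a log2 fold change, its standard error (also log2), a Wald statistic (a score), and raw and adjusted p-values. The deposited adjusted p-values reach 0.0499 and the smallest absolute log2 fold change is 0.58, so the table was filtered on both.

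Implied group means were computed from the mean count and the fold change, assuming equal group sizes, and 95% intervals from the standard error and the normal quantile. The number of genes tested was estimated from adjusted over raw p-values of the 20 smallest p-values above 0; it can come out low, since strongly called genes of small fold are outside the table. Gene models, and the exon bases behind levels per kb, came from GENCODE M21 (GRCm38), which matched 3583 of 3624 rows by a unique symbol. Promoter windows came from RefSeq (GRCm38.p6). Calculations used Python 3.11.15, pandas 2.3.3 and scipy 1.17.1 and were tested on simulated data.

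The IGF axis genes, 6 other pathway lists and 9 marker lists were chosen with earlier results of these data known. No list was tested. Text names every axis gene, all listed genes of a pathway list or the 6 with the smallest adjusted p-value, and up to 3 per marker list; Gfap, Aqp4 and Spp1 were also fixed. Other genes, such as Adam12, C3, Tyrobp and the exceptions within lists, were named after their values were seen.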

Additional observations from a re-analysis of the deposited data

How the results depend on the processing

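The deposited calls on the 6 IGF axis genes were counted again under 4 restrictions, without a new fit. These were a mean normalized count of at least 100 and an absolute log2 change of at least 1. The others were an adjusted p-value under 0.001 and a 95% interval wholly beyond 0.58 on the log2 scale. Under each of the 4, 3 axis genes were higher and 3 lower. This outcome follows from the values of the 6 genes given above, so it does not show how the calls depend on the processing. The count of lower genes over the pathway lists was 13 and came to 7 at an absolute log2 change of at least 1, where genes with smaller falls drop out by construction. Leaving out Pdk1, an alternative chosen after seeing the data, gave 17 higher and 13 lower. The other counts over the pathway and marker lists were within 1.5 times of those reported. The table holds changed genes only, with a median log2 fold change of 0.66. Absolute values under 0.58 are absent and 54.9% of the rows are higher, so that median does not estimate a shift between the groups. Centring on it keeps the direction of all 6 genes but takes Igf1 to 0.54, under the table's own limit, and Igfbp2 to -2.82. For the reason given, no conclusion is drawn from the centred values. No paired analysis was possible because the table holds no values per sample. For the same reason the fits that leave out a replicate, block on replicate number or use other size factors were not run. Depth per sample is unknown, so the limits of detection for low transcripts such as Igf2bp3 were not worked out.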

Other observations

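Genes next to the ligands in the order of log2 fold change were read off as a rank only, since 1 comparison holds no pattern across samples. Igf2 stood next to Marchf1, a ubiquitin ligase gene, at 3.38 ± 0.23 in the authors' deposited table. Igf1 stood between Man2a1, a mannosidase gene of the Golgi, at 1.20 ± 0.20 and Slc7a7, an amino acid transporter gene, at 1.20 ± 0.20 in the authors' deposited table.

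Markers of further cell types of the retina and optic nerve were also counted. The shares over all genes tested, for comparison, were 12% higher and 9.84% lower. Neuron markers were lower for 7 of 11 genes and higher for 0, around a median of -1.43 (log2), and Elavl3, an RNA-binding protein gene of neurons, fell by 2.85 ± 0.30 in the authors' deposited table. Genes of Müller glia and retinal progenitors were lower for 7 of 11 and higher for 0, with a median of -1.17, and the eye field gene Six3 fell by 1.57 ± 0.13 in the authors' deposited table. Pericyte and smooth muscle genes were lower for 4 of 10 and higher for 1, Vtn, and Acta2, the smooth muscle actin gene, fell by 1.00 ± 0.12 in the authors' deposited table. Endothelial genes were higher for 2 of 10 and lower for 1, and the 30% listed was not far from the 21.8% of all genes tested. In the authors' deposited table the receptor gene Kdr rose by 2.08 ± 0.18 and the cadherin gene Cdh5 by 1.11 ± 0.11, while the receptor gene Flt1 fell by 0.98 ± 0.26. Genes of the retinal pigment epithelium were higher for 3 of 9 and lower for 2, without a common direction. Ttr, which encodes transthyretin and is also a defining transcript of the choroid plexus, rose by 5.34 ± 0.77 in the authors' deposited table, from an implied mean of 2.03 to 82.0. Also in the authors' deposited table, the transcription factor gene Mitf rose by 1.28 ± 0.22 and the channel gene Best1 by 2.04 ± 0.51. On the same list the melanin enzyme gene Dct fell by 5.30 ± 1.46, from an implied mean of 7.81 to 0.20, and the retinoid-binding protein gene Rlbp1 fell by 0.88 ± 0.36, in the authors' deposited table.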
